A study of Mus musculus with 24 samples.

Results

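Apoe and 9 genes of lipid transport were followed through cortex RNA of 24 mice, as the rows of a gene count table that carry these names. All 10 members were found among 43346 genes, and all 10 were among the 19678 genes with enough counts to be tested. The table holds read counts of bulk RNA sequencing libraries, each from 1 mouse, and the 4 groups hold 6 mice each (by the series text, 3 of either sex). All mice were of the C57BL/6 background and carried Cx3cr1CreER, a Cre recombinase that tamoxifen activates and that the promoter of the microglial gene Cx3cr1 drives. The genotype was TREM2-WT+/+; Cx3cr1CreER/+ in the groups called WT_control and WT_induced, and TREM2-R47H+/+; Cx3cr1CreER/+ in R47H_control and R47H_induced. Induced mice had been given tamoxifen, meant to turn on TREM2 in microglia, and control mice its corn oil vehicle. TREM2 is a receptor through which microglia, brain-resident macrophages, sense lipids, and its variant R47H is linked to a higher risk of Alzheimer's disease. The labels used here give no ages, the 2 genotypes are separate lines, and no group received tamoxifen without Cre. Tamoxifen and induction therefore cannot be told apart, and neither can the R47H construct and any other difference between the lines.

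Cells of the brain pass cholesterol and other lipids to each other on particles that resemble high-density lipoprotein. Astrocytes secrete most of the APOE of these particles, microglia add some, ABCA1 and ABCG1 load them with lipid, and receptors such as LRP1 take them up into neurons and other cells. Oxysterols formed from surplus cholesterol bind the liver X receptors (LXR) encoded by Nr1h2 and Nr1h3, and LXR raises the transcription of Apoe, Abca1, Abcg1 and Srebf1. LPL releases fatty acids from the triglycerides of lipoproteins, and SOAT1 esterifies cholesterol for storage in droplets.

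Of the 10 genes, 5 differed between the lines when both treatments were averaged, and none passed the test between induced and control mice. Apoe, Abca1, Nr1h2 and Soat1 were higher in R47H than in WT cortex, by 7.69% to 12.4%, and Lpl was lower by 28.6%. The background was wide, since 13.8% of all tested genes passed in the same comparison (edgeR quasi-likelihood test, Benjamini-Hochberg adjusted p below 0.05). The 5 calls among 10 members are read against that share, and nothing particular to these genes was tested.

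The upstream sequences of the 4 genes that were higher in R47H mice are shown because these genes rose in the same comparison. RefSeq sequences (GRCm38.p6) were found for 7 of the 10 members, and not for Apoc1, Abcg1 and Lpl. Each line gives the 250 bases before the RefSeq start, 5′ to 3′ on the gene's strand, with matches to the motifs named after them in capitals. The windows searched for motifs were longer and reached past the start, for Soat1 at chr1:156474279-156474578.
Apoe, chr7:19699189-19699438, minus strand: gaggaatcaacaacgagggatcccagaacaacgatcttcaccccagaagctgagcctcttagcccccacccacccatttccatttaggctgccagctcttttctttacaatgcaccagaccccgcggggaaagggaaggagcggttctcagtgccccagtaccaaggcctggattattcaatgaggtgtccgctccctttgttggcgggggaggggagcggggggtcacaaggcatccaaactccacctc
Abca1, chr4:53159896-53160145, minus strand: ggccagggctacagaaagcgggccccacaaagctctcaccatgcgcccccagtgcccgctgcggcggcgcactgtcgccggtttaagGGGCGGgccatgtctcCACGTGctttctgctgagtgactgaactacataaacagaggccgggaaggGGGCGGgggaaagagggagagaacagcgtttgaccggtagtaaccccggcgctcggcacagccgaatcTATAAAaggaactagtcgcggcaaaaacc
Nr1h2, chr7:44553966-44554215, minus strand: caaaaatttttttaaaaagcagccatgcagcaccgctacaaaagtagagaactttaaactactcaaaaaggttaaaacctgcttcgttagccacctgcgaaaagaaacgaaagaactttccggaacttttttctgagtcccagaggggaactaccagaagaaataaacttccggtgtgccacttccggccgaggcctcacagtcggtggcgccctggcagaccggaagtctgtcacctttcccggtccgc
Soat1, chr1:156474329-156474578, minus strand: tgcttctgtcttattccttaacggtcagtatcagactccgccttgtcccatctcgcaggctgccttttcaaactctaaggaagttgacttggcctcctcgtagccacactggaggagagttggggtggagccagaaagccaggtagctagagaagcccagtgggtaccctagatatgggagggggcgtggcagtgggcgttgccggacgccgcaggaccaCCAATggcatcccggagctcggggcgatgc

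Both strands were searched for the nuclear receptor half-site AGGTCA, for a direct repeat of this half-site with 4 bases between the copies, for the TATA box TATAAA, for the E-box motif CACGTG, for the GC box GGGCGG and for the CCAAT box. No exact AGGTCA lay in a window of any of the 7 genes. Of 32851 RefSeq windows of the same length, 14.02% held one and 0.0152% held the direct repeat, so an absence in 7 genes is common. The Abca1 window held a TATAAA beginning at position -29 from the start, a CACGTG at position -147 and 2 copies of GGGCGG. These motifs lay in 12.4%, 6.02% and 32.7% of all windows. The Soat1 window held a CCAAT box at position -30, a motif of 33.8% of windows, and the Apoe and Nr1h2 windows shown held none of the motifs. These matches describe exact letters, and variant copies of a motif, such as a repeat of imperfect half-sites, were not searched for. An absent motif says only that these letters are not in this window, and not that no receptor site is there.

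Total counts per library ran from 27933505 to 56082520. Markers of cortex were present in every library, with a summed level of 6622 to 7238 CPM (counts of a gene per 1000000 counts of the TMM-scaled library) for 8 neuronal genes and 3846 to 4549 CPM for 10 astrocyte genes. Reads of 3 rRNA-like genes, which reflect library quality, took a mean of 15.9% and 18.3% of counts in control and induced WT mice, and 20.3% and 17.04% in control and induced R47H mice. WT_induced replicate 6 stood apart in the 10 microglial markers, which reached 403.6 CPM there, while the other groups peaked between 274.9 and 299.5 CPM. Genes of the liver varied widely between libraries, as described with Apoc1. Mouse Trem2, the gene targeted by name, was at 6.40 ± 0.367, 6.61 ± 1.43, 7.89 ± 0.974 and 6.62 ± 0.534 CPM in the 4 groups in the order above (SD, n = 6); reads of a construct from another species need not count there, so this level does not check the labels.

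Levels can be compared between genes only per length. Per kilobase of counted exons, Apoe stood at 454.8 ± 44.8 CPM over the 24 libraries and Lrp1 followed at 32.9 ± 1.89. Abcg1 was at 15.1 ± 0.711, and Nr1h2 and Srebf1 were neighbours within their spread at 9.96 ± 0.610 and 9.56 ± 0.878. Abca1 was at 5.92 ± 0.513, ahead of Lpl at 4.17 ± 0.958 and Soat1 at 3.87 ± 0.307, which overlapped each other. Apoc1 at 1.69 ± 1.23 and Nr1h3 at 0.875 ± 0.108 were lowest and also overlapped. Values from here on are CPM without division by length, so they compare libraries and not genes.

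**Figure D1:**
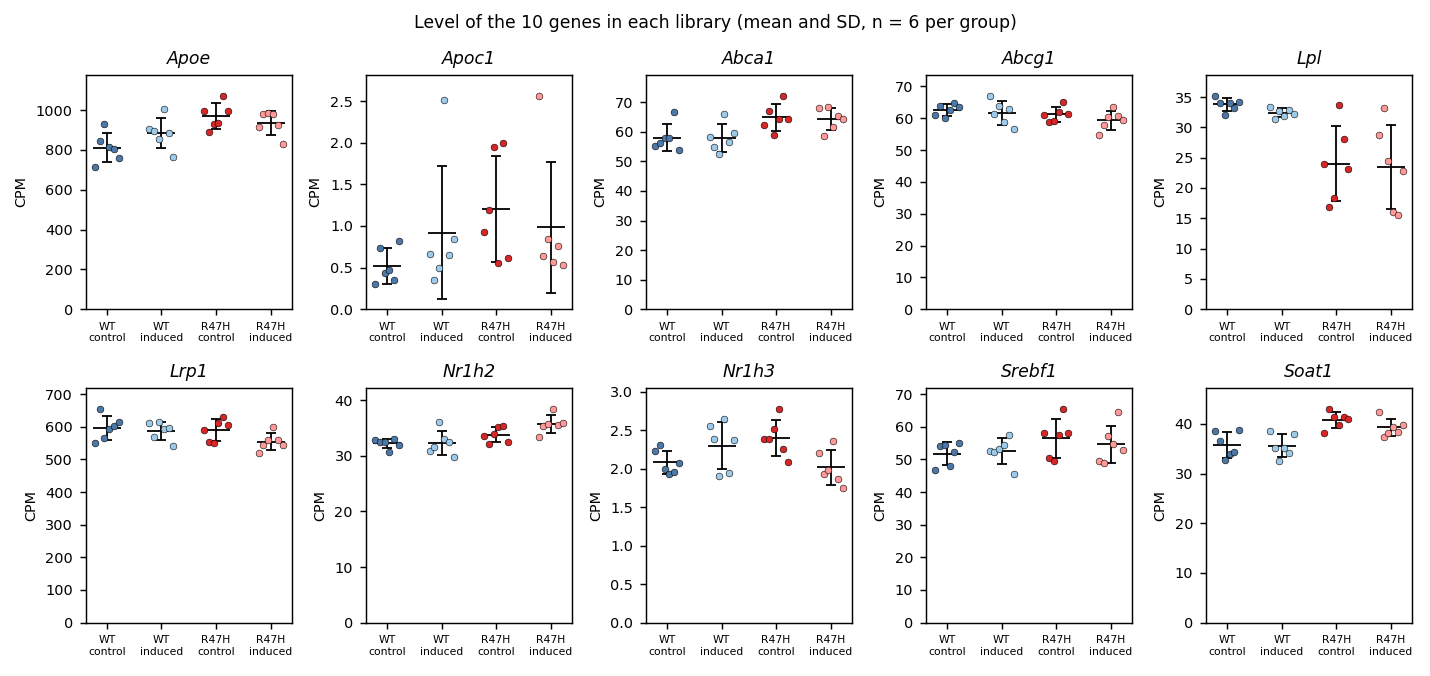
Level of the 10 genes in each library, in CPM (y axis, starting at 0), for the 4 groups (x axis); points are the 6 libraries of a group, horizontal marks the mean and bars the SD. Lpl lies between 31.4 and 35.2 CPM in the 12 WT libraries and between 15.5 and 33.7 CPM in the 12 R47H libraries, and Apoe is lowest in WT_control.

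Apoe encodes the main apolipoprotein of brain particles and lies at chr7:19696109-19699166 of mm10 on the minus strand, with no exon of another gene over its exons in the GENCODE vM21 annotation. Its lowest, median and highest library were 715, 808 and 932 CPM in WT_control and 766, 888 and 1004 in WT_induced. In R47H_control they were 892, 965 and 1072 CPM, and in R47H_induced 828, 952 and 984. In R47H_control 4 of 6 libraries were above the highest of WT_control, and in induced mice the R47H range lay wholly inside that of WT. Averaged over treatments the log2 difference of R47H from WT was 0.17 (SE 0.04, edgeR adjusted p = 0.00937), a rise of 12.4% with a 95% interval of 5.65% to 19.5%. Within control mice it was 0.26 (SE 0.06, edgeR adjusted p = 0.0126), and within induced mice 0.08 (SE 0.06, edgeR adjusted p = 0.522). The difference of the inductions, which is also the difference between these values, was -0.18 (SE 0.09) and did not pass (edgeR adjusted p = 0.630, unadjusted p = 0.0508).

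The rRNA-like share was also higher in R47H_control than in WT_control. Adjusted for that share as a covariate, the difference in control mice was 0.21 (edgeR adjusted p = 0.132), and the averaged one 0.15 (edgeR adjusted p = 0.0268). Beyond these fits its part in the result was not tested. Of 10 astrocyte markers 3 had a positive difference between lines in the averaged comparison, with a median of -0.01, and by edgeR 0 were called higher and 1 lower (3 at an unadjusted p below 0.05). The astrocyte sum was 4015 to 4377 CPM in R47H_control against 4017 to 4360 in WT_control. Markers of some other cells were higher beside Apoe and those of others were not. In control mice 6 of 6 choroid plexus markers had a positive difference (median 0.73), 6 of 6 of meningeal fibroblasts (median 0.20) and 9 of 10 of microglia (median 0.10), with 0 called by edgeR (0, 2 and 1 at an unadjusted p below 0.05). There 1 of 8 oligodendrocyte (median -0.07), 2 of 6 mural cell (-0.09), 3 of 8 neuronal (-0.05) and 0 of 5 red blood cell markers (-0.16) were positive. Of these, edgeR called 1 mural and 1 neuronal marker lower. Endothelial markers were at 4 of 8 (0.02), border-associated macrophages at 3 of 6 (0.004), oligodendrocyte precursors at 1 of 5 (-0.02) and astrocytes at 4 of 10 (-0.003). The choroid plexus sum was 32.7 to 551 CPM in R47H_control and 18.4 to 382 CPM in WT_control, the meningeal one 97.9 to 157 against 94.0 to 128 CPM, and the microglial one 276 to 300 against 263 to 285 CPM. Averaged over treatments 6 of 6 choroid plexus, 5 of 6 meningeal and 4 of 10 microglial markers were positive (medians 0.68, 0.11 and -0.02). In induced mice, where Apoe did not pass, 6 of 6 choroid plexus markers were positive (median 0.70). Of the meningeal markers 3 of 6 (median 0.02) and of the microglial ones 2 of 10 (median -0.12) were positive there. In each of these 3 lists edgeR called 0 in induced mice. In bulk cortex a lower level can come from fewer cells of a type or from less RNA per cell, and these cannot be told apart. With the astrocyte list as a covariate the averaged difference of Apoe was 0.17 (edgeR adjusted p = 0.0118), and with the microglia list it was 0.18 (edgeR adjusted p = 0.00348). With the choroid plexus or the meningeal list, covariates added after seeing the data, it was 0.17 (edgeR adjusted p = 0.0141 and 0.0165), and in control mice 0.26 and 0.27 (edgeR adjusted p = 0.0173 and 0.0369).

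Abca1, the transporter that moves cholesterol and phospholipid onto lipid-poor APOE, lies at chr4:53030787-53159895. Its lowest, median and highest library were 53.9, 57.0 and 66.8 CPM in WT_control and 52.6, 57.5 and 66.1 in WT_induced, against 58.9, 64.4 and 72.2 in R47H_control and 58.7, 64.7 and 68.4 in R47H_induced. The groups overlapped, with 2 of 6 R47H libraries above every WT library of the same treatment in each treatment. The averaged log2 difference was 0.16 (SE 0.04, edgeR adjusted p = 0.00703), or 11.4% (95% interval 5.41% to 17.8%). It had the same sign within control mice (0.16, edgeR adjusted p = 0.0778) and within induced mice (0.15, edgeR adjusted p = 0.113), where it passed in neither. Single libraries decided these calls. In control mice it passed without WT_control replicate 5 (0.21, edgeR adjusted p = 0.0177) or R47H_control replicate 3 (0.19, edgeR adjusted p = 0.0455), and without R47H_control replicate 5 it was 0.13 (edgeR adjusted p = 0.179). In induced mice it passed without WT_induced replicate 4 (0.19, edgeR adjusted p = 0.0336). Adjusted for the rRNA-like share, the value in control mice was 0.10 (edgeR adjusted p = 0.485).

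Soat1, which encodes the sterol O-acyltransferase of the endoplasmic reticulum, lies at chr1:156424525-156474331. Its libraries had a low, median and high of 32.7, 35.4 and 38.8 CPM in WT_control and 32.5, 35.1 and 38.6 in WT_induced. The same values were 38.2, 41.2 and 43.0 CPM in R47H_control and 37.3, 38.9 and 42.4 in R47H_induced. Of the 12 R47H libraries 8 lay above every WT library, the highest such count of the 10 genes, and 5 of 6 did so within control mice. Soat1 rose by 12.1% in the averaged comparison (95% interval 6.97% to 17.4%), a log2 difference of 0.16 (SE 0.03, edgeR adjusted p = 0.000888). In control mice it was 0.19 (SE 0.05, edgeR adjusted p = 0.0145) and in induced mice 0.14 (SE 0.05, edgeR adjusted p = 0.0679), where it passed without WT_induced replicate 1 or 6 (edgeR adjusted p = 0.0400 and 0.0450). Adjusted for the rRNA-like share, the value in control mice was 0.18 (edgeR adjusted p = 0.0890), and adjusted for the meningeal list it was 0.15 (edgeR adjusted p = 0.110). Over 38 alternative settings the call of Soat1 in control mice held in 34, with log2 differences from 0.13 to 0.21.

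Nr1h2 encodes LXR beta, the form found in most tissues, and lies at chr7:44549616-44553951. Its low, median and high were 30.7, 32.5 and 33.0 CPM in WT_control and 29.9, 32.0 and 36.1 in WT_induced. In R47H_control they were 32.1, 33.8 and 35.4, and in R47H_induced 33.4, 35.7 and 38.4. R47H_induced was the highest group, though 1 of its 6 libraries alone lay above every WT_induced library. The averaged difference was 0.11 (SE 0.03, edgeR adjusted p = 0.0115), or 7.69% (95% interval 3.39% to 12.2%). Within control mice it was 0.07 (SE 0.04, edgeR adjusted p = 0.361), and within induced mice 0.15 (SE 0.04, edgeR adjusted p = 0.0289). The call in induced mice was lost without WT_induced replicate 1, 2 or 6 or without R47H_induced replicate 3, 4 or 6, each left out alone, with values from 0.12 to 0.14 and edgeR adjusted p up to 0.0812. Scaling by library totals in place of TMM left the averaged difference at 0.09 (edgeR adjusted p = 0.136).

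Nr1h3 encodes LXR alpha, the form prominent in macrophages, at chr2:91184061-91202834, and 1.35% of its exon bases lie under another gene. It was scarce, with 62 to 129 counts per library. Its means were 2.08 ± 0.154 and 2.30 ± 0.309 CPM in control and induced WT mice, and 2.40 ± 0.233 and 2.02 ± 0.227 CPM in control and induced R47H mice (SD, n = 6). In R47H mice 4 of 6 induced libraries lay below every control library, and in WT mice 4 of 6 lay above. The induction was -0.25 (SE 0.10) in R47H and 0.14 (SE 0.10) in WT mice, and the difference between them was -0.39 (SE 0.14). None of these passed over all genes (edgeR adjusted p = 0.945, 0.803 and 0.562; unadjusted p = 0.0202, 0.169 and 0.0105).

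**Figure D2:**
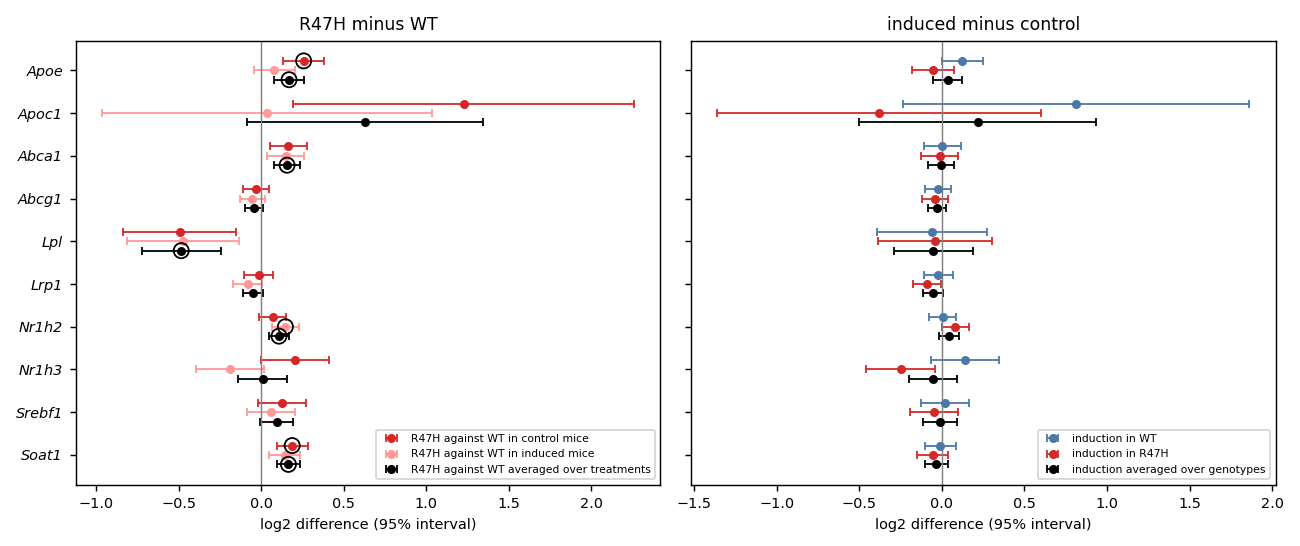
Log2 difference (x axis) of R47H from WT (left) and of induced from control (right) for the 10 genes, from 1 edgeR fit; points are estimates, bars 95% intervals, and open circles mark an adjusted p below 0.05. Circles appear for Apoe, Abca1, Lpl, Nr1h2 and Soat1 on the left, and on the right there are none.

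Lpl, at chr8:68880491-68907448, varied widely between R47H mice and little between WT mice. The 6 libraries of WT_control were at 32.1, 33.2, 34.0, 34.1, 34.3 and 35.2 CPM. Those of WT_induced were at 31.4, 31.9, 32.3, 32.7, 32.9 and 33.3 CPM. All 12 WT libraries thus lay within 31.4 to 35.2 CPM.

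In R47H_control, by contrast, Lpl stood at 16.9, 18.4, 23.1, 23.96, 28.1 and 33.7 CPM. In R47H_induced the libraries were at 15.5, 16.01, 22.7, 24.5, 28.7 and 33.2 CPM. Of these 12 libraries 10 lay below every WT library, and 1 in each R47H group lay within the WT range. The coefficient of variation was 3.12% in WT_control and 2.18% in WT_induced, against 26.0% and 29.6% in R47H_control and R47H_induced. Among 2667 tested genes of like mean level these were the 11.8th and 2.77th percentile in WT and the 99.3rd and 99.6th in R47H. No library had fewer than 609 counts of Lpl, so counting error is small beside this spread.

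The averaged log2 difference of Lpl was -0.49 (SE 0.12, edgeR adjusted p = 0.00676), with a 95% interval of the change from -39.6% to -15.6%. It was -0.50 (SE 0.16, edgeR adjusted p = 0.0781) in control mice and -0.48 (SE 0.16, edgeR adjusted p = 0.0933) in induced mice. It passed in control mice without R47H_control replicate 4 (-0.62, edgeR adjusted p = 0.0264) and in induced mice without R47H_induced replicate 2 (-0.60, edgeR adjusted p = 0.0271), the R47H libraries with the most Lpl. This fit gives each gene 1 spread for all groups, which the Lpl values of the lines do not share. Without the 8 libraries that had Alb, the albumin gene of liver, above 20 CPM, the averaged difference was -0.43 (edgeR adjusted p = 0.0938). In control mice it was then -0.32 (edgeR adjusted p = 0.551), over 4 WT and 3 R47H libraries. Induction left Lpl within its spread, at -0.06 (SE 0.16) in WT and -0.04 (SE 0.17) in R47H mice.

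The genes most like Lpl over the 24 libraries lay close to it on chromosome 8. Likeness is Pearson's r of log2 CPM after the group mean was subtracted, over 15784 genes with a mean of at least 1 CPM. The 3 highest were Plvap (r = 0.92), which encodes a protein of endothelial diaphragms, and the zinc finger genes Zfp963 (r = 0.91) and Zfp868 (r = 0.88). Their starts are 2.617, 0.861 and 0.73 Mb beyond that of Lpl. All points share library scaling, and reads of zinc finger families can match several copies, so the values of Zfp963 and Zfp868 are uncertain.

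Plvap ran from 10.7 to 13.4 CPM in WT and from 5.15 to 13.2 CPM in R47H libraries, with 8 of 12 R47H libraries below every WT library. Zfp963 ran from 4.53 to 6.15 CPM in WT and from 2.71 to 5.48 in R47H libraries, again with 8 of 12 below every WT library. For Zfp868 the ranges were 15.1 to 18.5 and 11.3 to 17.6 CPM, with 10 of 12 below. The 4 libraries with the least Lpl, replicates 2 and 3 of R47H_control and 4 and 5 of R47H_induced, were also the 4 with the least of each of these genes. Averaged over treatments the log2 difference was -0.50 for Zfp963 (edgeR adjusted p = 0.00150), -0.25 for Zfp868 (edgeR adjusted p = 0.00599) and -0.42 for Plvap (edgeR adjusted p = 0.0567). Within 5 Mb of Lpl, 35 of 148 tested genes were called in this comparison, 23 higher and 12 lower. That is a share of 23.65%, against 13.8% of all tested genes. The part of this neighbourhood in the Lpl values was not tested.

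**Figure D3:**
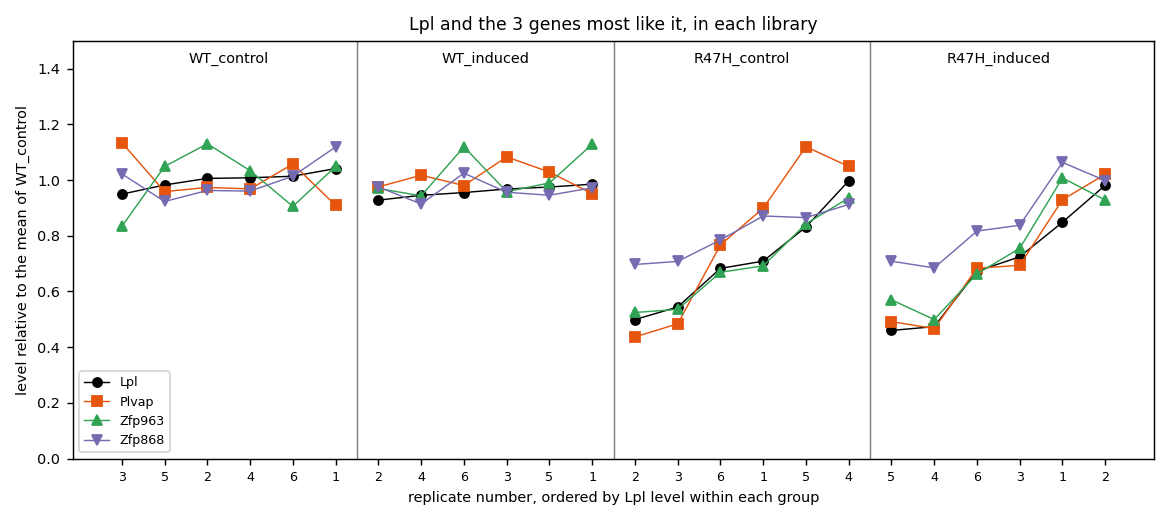
Level of Lpl, Plvap, Zfp963 and Zfp868 relative to each gene's mean in WT_control (y axis) in the 24 libraries (x axis), grouped and ordered by Lpl level within each group. In both WT groups the 4 genes stay near 1, and in both R47H groups they fall and rise together, Lpl lowest at 15.5 and highest at 33.7 CPM.

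The same share around the other called members was 25.74% for Soat1, 21.82% for Nr1h2 and 17.95% for Apoe, and around Abca1 it was 9 of 45 genes. Around the members that were not called it was 21.13% for Abcg1, 18.8% for Apoc1, 16.07% for Lrp1, 10.96% for Srebf1 and 6.49% for Nr1h3. Apoe and Apoc1 lie side by side and share nearly all of this window, so their like shares were given in advance. Apart from Apoc1, the shares of both kinds of member overlapped through Abcg1. Within 2 Mb the share was 38.24% for Soat1, 27.16% for Lpl and 26.77% for Nr1h2, above every member that was not called. There Apoe at 18.33% and Abca1 with 1 of 14 genes lay below Abcg1 at 19.67%. Of 5 tested genes listed as neighbours of Apoe on chromosome 7, edgeR called 0 in any comparison. One of them, Bcam, an adhesion molecule gene, was at 0.12 in the averaged comparison of the lines (edgeR adjusted p = 0.163, unadjusted p = 0.0415), and Pvrl2 and Relb were at 0.07 and 0.02 (edgeR adjusted p = 0.528 and 0.880). In control mice, where Apoe was called, 4 of these 5 genes had a positive difference (median 0.12). Bcam was at 0.21 there (edgeR adjusted p = 0.103, unadjusted p = 0.0106). In induced mice 3 of 5 were positive (median 0.01).

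Apoc1, the small apolipoprotein gene beside Apoe at chr7:19689484-19692658, was scarce, with 13 to 97 counts per library. Its low, median and high were 0.302, 0.452 and 0.824 CPM in WT_control and 0.348, 0.662 and 2.51 in WT_induced. In R47H_control they were 0.555, 1.06 and 1.99 CPM, and in R47H_induced 0.531, 0.697 and 2.56. The groups overlapped, and in each of the induced groups 1 library was far above the others. The averaged difference was 0.63 (SE 0.35, edgeR adjusted p = 0.252). It was 0.38 (edgeR adjusted p = 0.463) without R47H_induced replicate 1, and 0.94 and past the threshold (edgeR adjusted p = 0.0379) without WT_induced replicate 4, so single libraries decided its size and its call. In control mice it was 1.23 (SE 0.50, edgeR adjusted p = 0.156).

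The genes most like Apoc1 were Pzp, Gc and Cyp2e1 (r = 0.92, 0.92 and 0.91, measured as for Lpl), which encode a plasma protease inhibitor, the vitamin D binding protein and a cytochrome P450, all abundant in liver. A list of 12 liver genes, written after this was seen, summed to between 0.718 and 124.1 CPM per library. It was highest in WT_induced replicate 4, at 124.1 CPM, and the library with the highest Apoc1, R47H_induced replicate 1, had 68.0 CPM. In R47H_control replicates 3, 2 and 5 had 83.8, 58.0 and 45.0 CPM, and these were also its 3 libraries with the most Apoc1. With the liver list as a covariate the SE in control mice fell from 0.50 to 0.26 and the difference was 0.85 (edgeR adjusted p = 0.0546). The averaged difference was then 0.49 (SE 0.18, edgeR adjusted p = 0.0655).

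For Apoe the averaged difference was 0.17 both with the liver covariate (edgeR adjusted p = 0.0125) and without the 8 libraries with Alb above 20 CPM (edgeR adjusted p = 0.0325). Without them Abca1, Nr1h2 and Soat1 also passed in the averaged comparison (edgeR adjusted p = 0.0168, 0.0491 and 0.00903). In control mice, with 4 WT and 3 R47H libraries left, Apoe was at 0.26 and Soat1 at 0.19, and neither passed (edgeR adjusted p = 0.0733 and 0.0949). In induced mice Abca1 passed (0.19, edgeR adjusted p = 0.0328) and Nr1h2 did not (0.14, edgeR adjusted p = 0.0727).

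**Figure D4:**
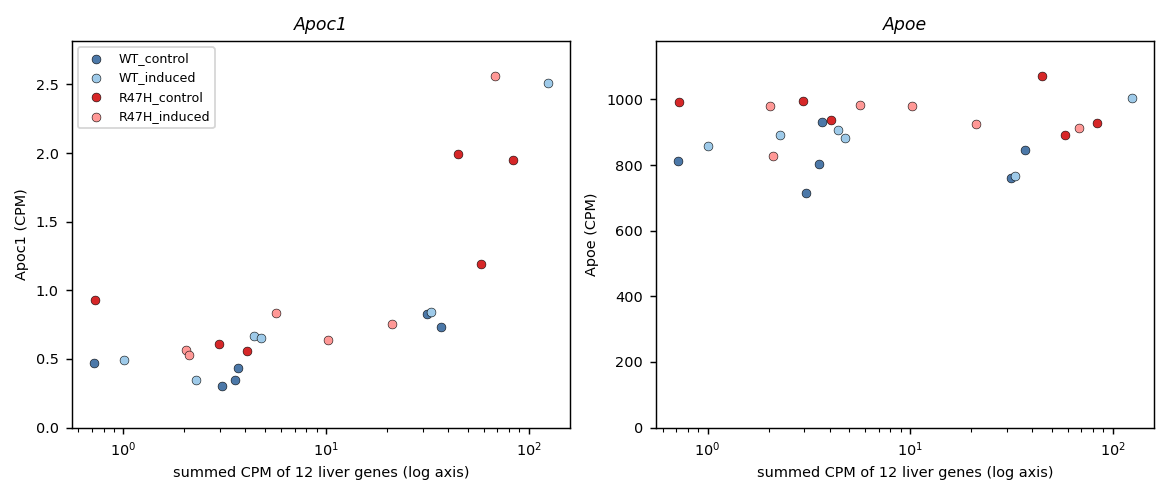
Level of Apoc1 (left) and Apoe (right) in CPM (y axes, starting at 0) against the summed CPM of 12 liver genes (x axes, log scale); points are the 24 libraries, coloured by group. The 5 libraries with the highest liver sums are the 5 with the most Apoc1, and their Apoe lies between 892 and 1072 CPM.

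Of the remaining members none was called. Abcg1, which exports cholesterol to particles that already carry lipid, lies at chr17:31057698-31115777 and ran from 54.7 to 67.0 CPM over all libraries, with an averaged difference between lines of -0.04 (95% interval -0.10 to 0.01). Lrp1, the large endocytic receptor for APOE, lies at chr10:127538161-127621148 and ran from 520 to 654 CPM, at -0.05 (95% interval -0.11 to 0.01). Its induction in R47H mice was -0.09 (SE 0.04, edgeR adjusted p = 0.962, unadjusted p = 0.0444), with 3 of 6 induced libraries below every control library. Srebf1, the transcription factor of fatty acid synthesis, lies at chr11:60199089-60222581, and 3.11% of its exon bases lie under other genes. It ran from 45.4 to 65.4 CPM, at 0.09 (95% interval -0.01 to 0.19, edgeR adjusted p = 0.238), and 4 of 12 R47H libraries were above every WT library. The intervals show the sizes of change that these libraries still allow.

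Counted over members, the comparison of lines gave 2 calls in control mice (Apoe and Soat1, both higher) and 1 in induced mice (Nr1h2, higher), where 5.74% and 5.8% of all tested genes were called. At an unadjusted p below 0.05 there were 5 members in control mice and 4 in induced mice, against 20.5% and 20.1% of all genes, and 5 in the averaged comparison, against 27.2%. In none of the members did the 6 libraries of R47H all lie on 1 side of the 6 of WT, a pattern seen in 3.18% of genes in control mice and 3.25% in induced mice. The median log2 difference of the 10 members was 0.10 in the averaged comparison, and that of all tested genes was -0.00058. The comparisons within each treatment use different libraries, and the averaged one uses all of them again.

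No member was called between induced and control mice. In edgeR 0 of 10 passed in WT mice, in R47H mice, in the difference between them and in the average of both, and the share of all genes was 0% in each. Counts of members at an unadjusted p below 0.05 were 0 in WT mice (7.85% of all genes), 2 in R47H mice (Lrp1 and Nr1h3, both lower, 5.11%), 1 in the difference (Nr1h3, 7.94%) and 0 in the average (4.64%). DESeq2 called 10, 4, 3 and 4 genes of the whole table in these comparisons and limma-voom 0 in each, with no member among them. No member separated its 6 induced from its 6 control libraries, as 0.234% of genes did in WT and 0.34% in R47H mice. In WT mice Apoe had the lowest p of the members, at 0.12 (95% interval -0.0014 to 0.25, unadjusted p = 0.0525, edgeR adjusted p = 0.641). For Apoe 1 of 6 induced libraries was above every control library there, and for Nr1h3 4 of 6 were. The interval for Abca1 was -0.11 to 0.11 in WT and -0.13 to 0.10 in R47H mice. Both inductions share no libraries with each other, but each shares its groups with the comparisons of the lines.

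Of 96 tested genes in 8 lists of the wider pathway, 12 were called in at least 1 comparison, all between the lines. The averaged comparison of the lines alone called 13.8% of all tested genes, so this count is not above the background. Among 19 tested genes of sterol efflux, trafficking and esterification, 2 rose and 2 fell in the averaged comparison (21.05%, against 13.8% of all genes). Abca3, a phospholipid transporter, fell from 132 ± 3.63 CPM in WT_control to 106 ± 7.23 in R47H_control (SD, n = 6), at an averaged log2 of -0.34 (SE 0.03, edgeR adjusted p = 2.27e-08). Abcg4, a neuronal relative of Abcg1, fell by 0.14 on the log2 scale (edgeR adjusted p = 0.00125). Abca5 and Abca8a, 2 further members of the ABCA family, rose by 0.10 and 0.23 (edgeR adjusted p = 0.0219 and 0.0465). Within 5 Mb of the list genes that were called, the share of called genes ran from 4.35% (Ppargc1a) to 33.18% (Abca3), against 13.8% of all tested genes.

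Among 16 lipoprotein receptors and their partners, 1 rose and 1 fell in the averaged comparison. Lrpap1, the chaperone that keeps LRP1 from binding ligands too early, rose by 0.10 (SE 0.02, edgeR adjusted p = 0.00179).

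Among 13 tested partners of LXR and related nuclear receptors, 1 rose and 2 fell. Rxrg, one of the retinoid X receptors with which LXR pairs, fell by 0.32 (SE 0.05, edgeR adjusted p = 0.000116), from medians of 19.4 and 19.8 CPM in WT_control and WT_induced to 16.5 and 15.7 in R47H_control and R47H_induced. Ncor1, a corepressor, fell by 0.06 and Ppargc1a, a coactivator, rose by 0.12 (edgeR adjusted p = 0.0297 and 0.00320). Among 10 other LXR targets 0 were called in any comparison by edgeR, and 2 had an unadjusted p below 0.05 in the averaged comparison of the lines. Of these Mertk, a receptor for engulfing dead cells, was at -0.15 (edgeR adjusted p = 0.0895). Scd1, which desaturates fatty acids, was at -0.05 (edgeR adjusted p = 0.445), and Scd2 at 0.02 (edgeR adjusted p = 0.562). Between the lines in induced mice Scd1 was at -0.16 (edgeR adjusted p = 0.0847, unadjusted p = 0.00707). Its induction in WT mice was 0.18 (edgeR adjusted p = 0.476, unadjusted p = 0.00259). Neither SREBP control (0 of 6 called, 1 at an unadjusted p below 0.05) nor the other apolipoproteins (0 of 11, 1 below 0.05) passed in the averaged comparison. The lowest p of these lists belonged to Mbtps2, a protease that releases SREBP, at 0.07 (edgeR adjusted p = 0.105), and to Apod, a lipocalin, at -0.18 (edgeR adjusted p = 0.159).

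Among 17 tested lipases, fatty acid carriers and partners of LPL, 1 was called in the averaged comparison. Lipg, the endothelial lipase and a relative of Lpl, fell by 0.73 (SE 0.14, edgeR adjusted p = 0.00069), from medians of 4.83 and 4.29 CPM in WT_control and WT_induced to 2.76 and 2.68 in R47H_control and R47H_induced. Fabp7, a fatty acid binding protein of astrocytes and radial glia, was called in control mice, at 0.49 (SE 0.14, edgeR adjusted p = 0.0403), with means of 34.1 ± 1.43 CPM in R47H_control and 24.3 ± 3.21 in WT_control (SD, n = 6). In induced mice it was at -0.02 (edgeR adjusted p = 0.964), and the difference of inductions did not pass (edgeR adjusted p = 0.585). The counts of these lists lie on both sides of the background of 13.8% and are a description.

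Relations between libraries of a group were also computed. Of 59 relations, of Apoe with the other 9 members and of all 10 with 5 cell type marker lists, none passed a permutation test within groups after Benjamini-Hochberg adjustment. By Pearson's r the lowest p was that of Apoe and Srebf1 (Pearson's r = 0.52, permutation p = 0.0109, adjusted p = 0.311; Spearman's rho = 0.50, permutation p = 0.0198, adjusted p = 0.292; n = 24), and r was 0.43 without the 2 libraries farthest from the median. By Spearman's rho it was that of the neuronal list and Srebf1 (rho = -0.55, permutation p = 0.00886, adjusted p = 0.284; r = -0.47, permutation p = 0.0189, adjusted p = 0.311), with r at -0.42 without the 2 farthest libraries. Apoe and Soat1, which were both higher in R47H mice, had an r of -0.49 within groups (permutation p = 0.0348, adjusted p = 0.311) and -0.32 without the 2 farthest libraries. The gene most like Apoe was Ctnnbip1 (r = 0.83), an inhibitor of beta-catenin, and the gene most like Srebf1 was Wscd1 (r = 0.93). Those most like Lrp1 and Abca1 were Prrc2b (r = 0.90) and Amotl2 (r = 0.79). For Abcg1, Nr1h2, Nr1h3 and Soat1 they were Tox2, Eef1a2, Oaf and Nfat5 (r = 0.83 in each). These values are a description over 24 libraries that share depth and scaling.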

How the data were processed

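Poly-A RNA of 24 cortices was prepared with the TruSeq kit v2, which does not mark strand, per the labels' protocols. Values are whole-number counts of reads per gene, not normalized, as the authors deposited them; STAR 2.5.2b, featureCounts 1.5.1 and mm10 are named in the submitters' processing notes, with no counting options. Groups follow the genotype and treatment labels, and replicate numbers follow accession order. Coordinates were taken from the deposited table. Each of the 60 pairs of libraries within groups differed by more than sampling noise (chi-square per degree of freedom 4.31 to 61.7), so each library was 1 replicate.

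Genes were tested on TMM-scaled counts with edgeR 4.0.16 (R 4.3.3; filterByExpr, robust quasi-likelihood F-test) in 1 fit of 24 libraries with 7 contrasts, adjusted over 19678 genes. SE is the estimate over the square root of F, and intervals use the fit's degrees of freedom. The p-values measure the spread between these mice. The procedure was tested on simulated counts for the induction in WT mice only. That test does not cover the comparisons of the lines or a spread that differs between groups. DESeq2 1.42.0, limma-voom 3.58.1, other scalings, filters and covariates, and each library left out were alternatives. Relations used 100000 permutations.

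The members, gene lists and tests were chosen with earlier results of these data known. Genes chosen for naming were all members, Trem2, and list genes called in any comparison. Added to these were up to 3 of lowest p per list and the 3 most alike genes per member. Of the genes of lowest p per list that were not called, some are not printed. Of the alike genes the first per member is printed, and all 3 for Lpl and Apoc1. Of the list genes called, 2 are not reported here. The liver list, the choroid plexus and meningeal covariates, the removal of libraries by Alb and the counts of neighbouring genes were chosen after seeing the data.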

Additional observations from a re-analysis of the deposited data

Results flagged for a closer look

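In 3 of 40 sets of 6 libraries (10 genes in 4 groups) 1 library stood apart from the rest of its group by more than Dixon's 95% limit, which chance alone passes in about 1 in 20 sets. Apoc1 was at 2.51 CPM in WT_induced replicate 4, with the nearest library at 0.843 CPM, and at 2.56 CPM in R47H_induced replicate 1, with the nearest at 0.838 CPM. The 12 liver genes summed to 124.1 and 68.0 CPM in these libraries, and their part in the Apoc1 values was not tested. Abca1 was at 66.8 CPM in WT_control replicate 5, with the nearest library at 58.0 CPM.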

How the results depend on the processing

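The calls in the averaged comparison of the lines were the most stable. Apoe, Abca1 and Soat1 passed under all 37 alternatives, Nr1h2 under 36 (lost with library totals) and Lpl under 36 (lost without the libraries with Alb above 20 CPM). In induced mice, where 1 member passed, 0 did in a fit of the compared libraries alone. There 2 passed with the astrocyte, microglia or liver covariate or with limma-voom, and 3 at an adjusted p below 0.1. With each library left out the number ran from 0 to 2. In control mice, where 2 passed, 1 did with the meningeal covariate, 0 did with the rRNA-like covariate or without the libraries with Alb above 20 CPM, and 4 did at an adjusted p below 0.1. Apoe passed there under 36 of 38 alternatives and Soat1 under 34. Of the members 0 to 1 had no overlap between lines in induced mice, and 0 to 1 in control mice, when single libraries were left out. The shares of all genes given above, 3.25% and 3.18%, hold for 6 against 6 libraries and are not the background of these counts. With library totals 1 of the 59 relations passed. With the rRNA-like covariate, 451 genes of the whole table were called in control mice, against 1129. The meningeal covariate gave 525 there and the removal of libraries by Alb 421. In induced mice the fit of the compared libraries alone called 826 genes, against 1142. The astrocyte, microglia and liver covariates and limma-voom gave 971, 1093, 1145 and 1095 in induced mice. For an adjusted p below 0.1 no share of all genes is given. No paired analysis was possible because the replicate numbers were given in accession order and the labels pair no mice. Apoc1 and Nr1h3 had at most 129 counts per library, which limits their precision. The coefficient of variation of Apoc1 was 40.8% to 86.8% in the 4 groups. For genes of like mean level its median was 19.8% to 21.1%. What sets the spread of Apoc1 was not tested.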
